A study of Homo sapiens with 4 samples.

Results

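NEDD8 is a small ubiquitin-like protein that cells attach to other proteins by an enzyme cascade called neddylation. The 10 genes described here encode the modifier itself (NEDD8), the 2 subunits of its E1 activating enzyme (NAE1 and UBA3), its E2 conjugating enzymes (UBE2M and UBE2F), a co-E3 that helps the last transfer (DCUN1D1), the deneddylating or processing proteases COPS5 and SENP8, and the substrates CUL1 and CUL3. They were picked by gene symbol from a list of pathway names and not by a threshold on measured values, although earlier results of these data were known when the list was made. All 10 were present in the deposited tables, out of 27685 genes, and their transcripts were summed per gene.

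The samples were HT-29 cells, an established human colon adenocarcinoma line, carrying a retroviral control vector (labelled Mock) or the same vector with N-terminally Myc-tagged TRIM40. TRIM40 is a RING-type ubiquitin ligase that has also been reported to promote neddylation of the IKK gamma subunit (IKBKG). Cells of both conditions were selected with puromycin and carried the vector stably, so Myc-TRIM40 was measured above the endogenous background of a cancer line and not under its own promoter. Polyadenylated RNA was sequenced in 2 experiments with 1 library per condition in each, which makes 4 libraries. The sources used here do not say whether the 2 experiments started from separate transductions, so the p-values measure the spread between these libraries, which may be partly technical.

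Neddylation runs in a fixed order. The NAE1-UBA3 heterodimer activates NEDD8 with ATP and passes it to UBE2M or UBE2F. With the RING protein RBX1, UBE2M serves the cullins CUL1 to CUL4, whereas UBE2F works with RNF7 on CUL5. A NEDD8-bearing cullin is the active scaffold of a cullin-RING ubiquitin ligase, the COP9 signalosome with its catalytic subunit COPS5 removes NEDD8 again, and blocking the E1 is a known way to stop these ligases in tumour cells. All of this takes place on proteins, whereas the data here are RNA levels.

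TRIM40 itself had 0 reads in both control libraries, 272646 reads with Myc-TRIM40 in experiment 1 and 110665 in experiment 2. The total of estimated reads per library ran from 60954602 to 67424698. Of 11 colon epithelium markers, 10 reached 1 FPKM in every library (FPKM, fragments per kilobase of transcript, scaled to the size of the library), the exception being CDX1. None of 4 fibroblast and none of 3 endothelial markers reached that level, with COL1A2, COL3A1 and CDH5 at 0 in every library. Of the leukocyte markers only CD14 did, and CD3E was at 0. The control library of experiment 2 stood apart from the others. Across 14868 genes that passed a filter on low counts, the log2 ratio of that library over the control of experiment 1 had a Spearman correlation of -0.50 with transcript length, against -0.19 for the Myc-TRIM40 libraries of the same experiments. The Myc-TRIM40 over control ratio tracked transcript length in experiment 2 (0.63) much more than in experiment 1 (0.08).

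UBE2F was the member whose transcript makeup differed most between libraries, and some exons that tell its isoforms apart are shown first. They mark only part of the isoforms whose estimates differed. In the lines that follow, capitals mark an exon that the main transcript NM_080678 holds and another deposited transcript lacks, and lower case marks 10 bases of mRNA on each side. Sequences and positions are of GRCh38 with the GENCODE v29 annotation, on the plus strand, and all of these exons are coding. The first 2 are both missing from NM_001278307, the next from NM_001278308 and the last from NR_103498, and its 68 bases are not a multiple of 3.
UBE2F exon of 30 bases, chr2:237987963-237987992: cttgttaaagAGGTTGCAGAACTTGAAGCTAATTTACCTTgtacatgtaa
UBE2F exon of 66 bases, chr2:237994744-237994809: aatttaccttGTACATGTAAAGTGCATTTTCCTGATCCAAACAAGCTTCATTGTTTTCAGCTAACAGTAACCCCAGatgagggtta
UBE2F exon of 63 bases, chr2:238035878-238035940: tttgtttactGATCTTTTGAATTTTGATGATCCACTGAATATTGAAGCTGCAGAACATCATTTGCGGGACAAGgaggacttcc
UBE2F exon of 68 bases, chr2:238016566-238016633: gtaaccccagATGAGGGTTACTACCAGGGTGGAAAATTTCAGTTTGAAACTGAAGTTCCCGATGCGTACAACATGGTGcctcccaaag

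UBA3, the catalytic subunit of the E1, was split between 2 transcripts in every library, and its alternative exon is shown for that reason. The exon has 42 bases, lies on the minus strand at chr3:69080112-69080153 of GRCh38, is wholly coding and keeps the reading frame. NM_003968 holds it and NM_198195 does not.
UBA3 exon of 42 bases: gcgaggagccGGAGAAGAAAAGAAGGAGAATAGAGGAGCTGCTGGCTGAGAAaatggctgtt

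The first question was how strongly HT-29 cells express the cascade. All 10 genes were expressed in all 4 libraries, from the modifier at over 120 FPKM to the protease SENP8 at 1.59 to 2.54 FPKM. By mean FPKM the order was NEDD8, UBE2M, COPS5, CUL1, NAE1, CUL3, UBA3, UBE2F, DCUN1D1 and SENP8. NEDD8, at a mean of 137 ± 27.7 FPKM (SD, n = 4 libraries), exceeded 98.1% of all listed genes, and SENP8, at 2.20 ± 0.444 FPKM, exceeded 62.0%. Neighbours whose ranges over the 4 libraries overlapped were COPS5 and CUL1, CUL1 and NAE1, CUL3 and UBA3, and UBA3 and UBE2F. The other neighbours in the order kept it in 4 of 4 libraries without overlap.

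**Figure D1:**
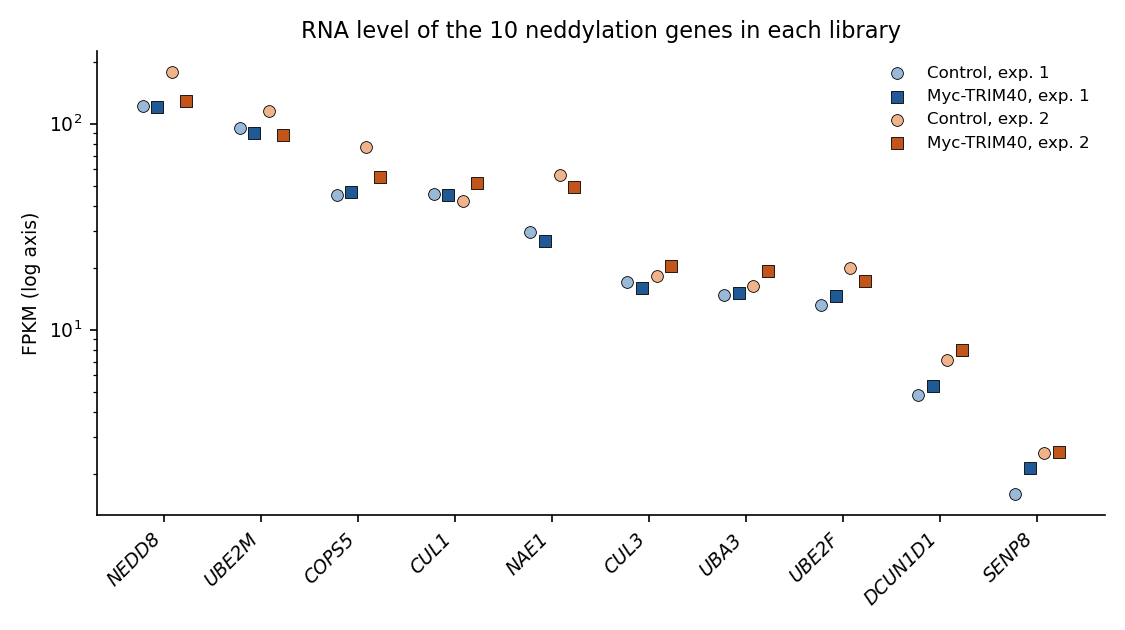
RNA level of the 10 neddylation genes, in FPKM on a log axis, with 1 point per library (circles control, squares Myc-TRIM40, blue experiment 1, orange experiment 2). NEDD8 lies highest at 120 to 179 FPKM and SENP8 lowest at 1.59 to 2.54 FPKM. For 8 of the 10 genes, all but UBE2M and CUL1, both experiment 2 libraries lie above both experiment 1 libraries. The share of all genes with that pattern is not given here. FPKM summed over all genes was 457454 and 447570 in experiment 1 and 552270 and 469117 in experiment 2, control first.

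The second question, which the design poses directly, was whether Myc-TRIM40 changed these RNAs. None of the 10 genes passed the test in either direction: edgeR's quasi-likelihood test with experiment as a block called 0 members at an adjusted p under 0.05, against 0.0404% of all tested genes called higher and 0.0202% called lower. At an unadjusted p under 0.05 the members again numbered 0, where 4.54% of all genes were found. DESeq2 also called 0 members, with 0.303% of genes called higher and 0.0605% lower, and had 0 members at an unadjusted p under 0.05 (3.65% of genes). The smallest unadjusted member p was 0.193 with edgeR, for UBE2M, and 0.156 with DESeq2. An exact permutation test of 2 against 2 libraries, with the pairing by experiment ignored, cannot give a two-sided p under 0.333. Keeping the pairing allows fewer arrangements, so no single gene could be called by either form.

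The intervals say what size of change the main edgeR fit leaves possible. Across the members the 95% intervals of the log2 fold change ran from -0.85, the lower end for NEDD8, to 0.78, the upper end for SENP8. On the linear scale the fold of Myc-TRIM40 over control was estimated between 0.801 (UBE2M) and 1.10 (SENP8), and the outermost interval bounds were 0.553-fold and 1.71-fold.

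The modifier and its E2 for most cullins had the lowest estimates. NEDD8 (gene ID 4738, chr14:24686057-24701576 in hg19) stood at 121 FPKM in the control and 120 FPKM with Myc-TRIM40 in experiment 1, and at 179 and 129 FPKM in experiment 2. The conditions overlapped, and the control library of experiment 2 was the one that lay high. The edgeR log2 fold change of NEDD8 was -0.32 (SE 0.23, 95% interval -0.85 to 0.22, adjusted p = 0.888). Without the control library of experiment 2, in a fit that could not hold the experiment constant, it was 0.03.

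UBE2M, the E2 that works with RBX1, stood at 95.4 and 90.0 FPKM in experiment 1 and at 116 and 88.1 FPKM in experiment 2, control first. It was the only member whose Myc-TRIM40 libraries both lay below both controls, in FPKM as in counts scaled to library size (CPM). In CPM 9.67% of all genes did the same and 11% had the opposite pattern, so 1 of 10 is near the background. Its log2 fold change was -0.32 (SE 0.23, 95% interval -0.84 to 0.20, adjusted p = 0.888 with edgeR). Without the control library of experiment 2, in a fit that could not hold the experiment constant, it was -0.12.

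UBE2F, the E2 that works with RNF7, had 13.2 and 14.5 FPKM in experiment 1 and 19.9 and 17.2 FPKM in experiment 2, control first. The conditions overlapped, with Myc-TRIM40 higher in the first experiment and lower in the second. The fitted log2 fold change was -0.11 (95% interval -0.62 to 0.40, adjusted p = 0.944 with edgeR). The RNA of UBE2M exceeded that of UBE2F per length in every library, by 7.25, 6.20, 5.82 and 5.11 times in the order control and Myc-TRIM40 of experiment 1, then of experiment 2. Within each experiment the ratio was lower with Myc-TRIM40, but there was 1 library per condition and no test.

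Of the E1 subunits, NAE1, the regulatory one, had 29.8 and 27.0 FPKM in experiment 1 and 56.4 and 49.2 FPKM in experiment 2, control first. Both libraries of experiment 2 lay above both of experiment 1, and Myc-TRIM40 lay below its own control in each experiment. With Myc-TRIM40 the log2 fold change of NAE1 was -0.25 (SE 0.21, 95% interval -0.73 to 0.23, adjusted p = 0.888 with edgeR). Without the control library of experiment 2, a fit that could not hold the experiment constant, it was 0.34.

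UBA3, which carries the active site cysteine of the E1, had 14.7 and 15.0 FPKM in experiment 1 and 16.2 and 19.2 FPKM in experiment 2. For UBA3 the log2 fold change was 0.05 (95% interval -0.43 to 0.54, adjusted p = 0.972 with edgeR). The 2 subunits form a 1-to-1 dimer, yet their RNAs were not equal: the ratio of NAE1 to UBA3 in FPKM was 2.03 and 1.80 in experiment 1 and 3.48 and 2.57 in experiment 2, control first. The ratio was above 1 in all 4 libraries and higher in experiment 2 than in experiment 1 for both conditions.

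COPS5, which cuts NEDD8 from cullins, had 45.1 and 46.6 FPKM in experiment 1 and 76.8 and 55.1 FPKM in experiment 2, control first. The control library of experiment 2 again lay above the other 3. EdgeR gave COPS5 a log2 fold change of -0.30 (SE 0.24, 95% interval -0.84 to 0.25, adjusted p = 0.888). Without that library, in a fit that could not hold the experiment constant, the estimate was 0.16.

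SENP8, which matures the NEDD8 precursor and removes NEDD8 from proteins other than cullins, was the faintest member, with 157, 211, 275 and 257 reads in the order control and Myc-TRIM40 of experiment 1, then of experiment 2. In FPKM these were 1.59, 2.14, 2.52 and 2.54, with the control of experiment 1 lowest. The log2 fold change was 0.14 (SE 0.28, 95% interval -0.50 to 0.78, adjusted p = 0.947 with edgeR), the widest interval among the members. In CPM its Myc-TRIM40 library was higher in experiment 1 and lower in experiment 2.

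DCUN1D1, the co-E3, had 4.84 and 5.33 FPKM in experiment 1 and 7.11 and 7.93 FPKM in experiment 2, control first. Myc-TRIM40 was above its own control in each experiment, by log2 ratios of 0.12 and 0.14 on FPKM + 1, which is less than the distance between experiments. Its log2 fold change was 0.07 (SE 0.21, 95% interval -0.41 to 0.54, adjusted p = 0.968 with edgeR).

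CUL1, the scaffold of the SKP1-F-box ligases, had 45.3 and 45.2 FPKM in experiment 1 and 42.0 and 51.8 FPKM in experiment 2, control first. Its log2 fold change was 0.07 (95% interval -0.43 to 0.56, adjusted p = 0.969 with edgeR). CUL3, the scaffold of the BTB-domain ligases such as the one with KEAP1, had 17.0 and 16.0 FPKM in experiment 1 and 18.3 and 20.3 FPKM in experiment 2. Its log2 fold change was -0.05 (95% interval -0.55 to 0.44, adjusted p = 0.975 with edgeR). Both cullins overlapped between conditions, and CUL1 exceeded CUL3 by 2.30 to 2.82 times in FPKM over the 4 libraries.

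**Figure D2:**
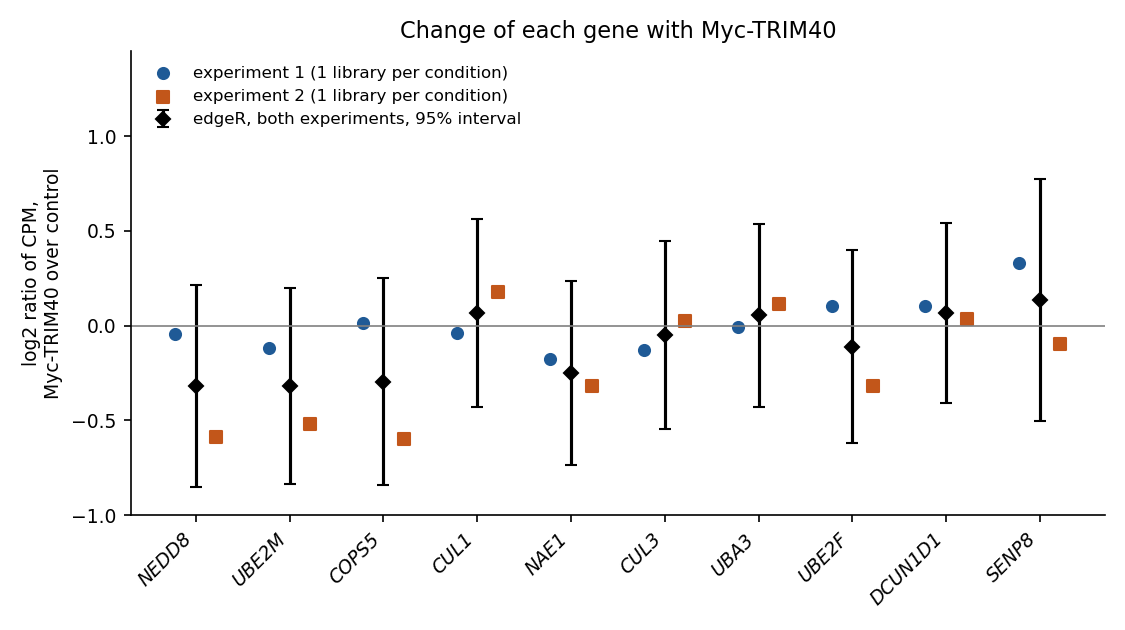
Log2 ratio of CPM, Myc-TRIM40 over control, for each neddylation gene: circles experiment 1, squares experiment 2 (1 library per condition in each), and diamonds the edgeR estimate over both with its 95% interval. All 10 intervals include 0, and NEDD8, UBE2M and COPS5 show experiment 2 values from -0.60 to -0.52 beside experiment 1 values from -0.12 to 0.01.

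Counted within experiments on the log2 ratio of FPKM + 1, 3 members (NEDD8, NAE1, UBE2M) were below 0 in both, 3 (UBA3, SENP8, DCUN1D1) were above 0 in both and 4 changed sign. The shares of all genes with these patterns on FPKM + 1 are not given here, so the split is not read as a trait of the members. On this scale no member passed 1.5-fold in either experiment, whereas 3.44% of all genes did in experiment 1 and 11.4% in experiment 2. On CPM, a scale added after seeing the data, 0 members passed in experiment 1 and 2 in experiment 2, namely COPS5 at -0.60 and NEDD8 at -0.59, where 6.75% and 17% of all genes did, so the count depended on the scale and 2 of 10 is near the background. Past 1.5-fold in both the members numbered 0, against 0.457% of genes higher and 0.0874% lower. The largest member ratio was 0.28 in experiment 1 (SENP8) and -0.47 in experiment 2 (COPS5). The median over the members was 0.01 in experiment 1 and -0.09 in experiment 2, beside 0.03 and 0.08 over all tested genes. On TPM + 1 (TPM, which scales all libraries to one total) the median of all genes moved to 0.27 in experiment 2, and there NAE1 was at 0.04, UBE2F at 0.03 and NEDD8 at -0.23, so the sign of the first 2 depended on the scaling.

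The members differ in transcript length by more than 10 times, from 625 bases for NEDD8 to 7828 for DCUN1D1, and in experiment 2 their ratios followed length. The Spearman correlation of length with the log2 ratio of CPM over the 10 members was 0.81 in experiment 2 and 0.08 in experiment 1. These are descriptions over genes of the same 2 libraries, and all tested genes shared the pattern. In experiment 2 the median log2 ratio was -0.40 in the shortest 2976 of all tested genes and 0.42 in the longest 2974, against -0.03 and 0.03 in experiment 1. With that trend taken out, a choice made after seeing the data, NEDD8 in experiment 2 moved from -0.59 to -0.10, NAE1 from -0.32 to -0.11, UBE2M from -0.52 to -0.22 and COPS5 from -0.60 to -0.29. The long members moved the other way, with DCUN1D1 from 0.03 to -0.45 and CUL3 from 0.03 to -0.40. UBA3, at 0.26, and SENP8, at 0.19, were then the highest, and CUL1 stood at 0.10. The part of the length trend in any member's ratio was not tested beyond these values.

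**Figure D3:**
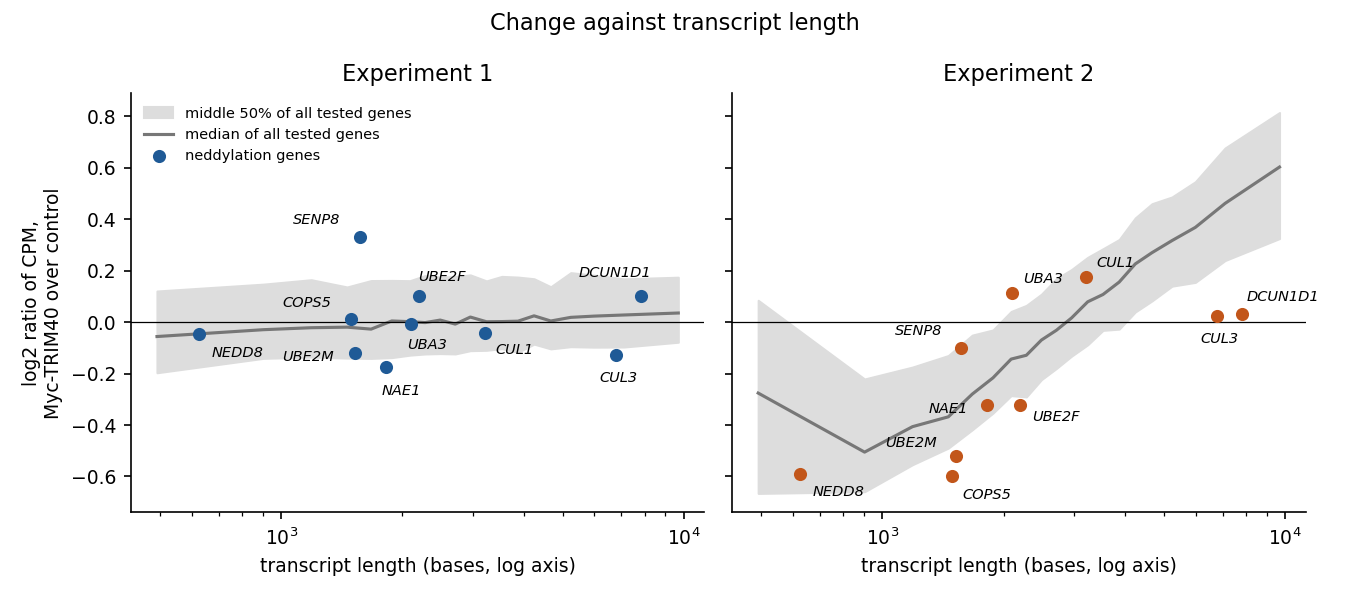
Log2 ratio of CPM, Myc-TRIM40 over control, against transcript length in bases (log axis) in each experiment, with the neddylation genes as points, and the median (line) and middle 50% (band) of all tested genes in 20 equal bins of length. The line is nearly flat in experiment 1, whereas in experiment 2 it climbs over most of the range, with UBA3, SENP8 and CUL1 above it and the other 7 members below it.

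Several of these genes differed more between the experiments than between the conditions. In the same edgeR fit, a comparison looked at after seeing the levels, all 10 members had estimates above 0 for experiment 2 over experiment 1. The share of all tested genes above 0 in that comparison is not given here, so this count is not read as a trait of the members. NAE1 was highest at a log2 fold change of 0.94 (95% interval 0.45 to 1.42, 1.91-fold, adjusted p = 0.0548), followed by DCUN1D1 at 0.61 (1.52-fold, adjusted p = 0.104) and COPS5 at 0.55 (1.46-fold, adjusted p = 0.173). None passed an adjusted p of 0.05, where 0.135% of all genes were called higher in experiment 2 and 0.397% lower, and 3 of 10 members were under an unadjusted p of 0.05, as were 28.9% of all genes, so the members' share is near the background. NAE1 was 1.89 times higher in experiment 2 in FPKM between the controls and 1.82 times between the Myc-TRIM40 libraries, so its difference was as large without the control library that stands apart. COPS5 was 1.70 times higher between the controls and 1.18 times between the Myc-TRIM40 libraries.

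At the transcript level, UBE2F differed in 1 library. Transcript NM_080678 held 1428 of 1811 UBE2F reads (78.9%, Wilson 95% interval 76.9 to 80.7) in the control and 1618 of 1998 (81.0%, 79.2 to 82.6) with Myc-TRIM40 in experiment 1. In experiment 2 it held 801 of 3023 (26.5%, 25.0 to 28.1) in the control and 2004 of 2436 (82.3%, 80.7 to 83.7) with Myc-TRIM40. The other 7 transcripts together held 73.5% in the control library of experiment 2 and 17.7% to 21.1% in the other 3 libraries.

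These reads were spread over several isoforms, among them those lacking the exons shown above. NM_001278307, without the exons of 30 and 66 bases, took 16.9% of UBE2F reads in the control of experiment 2 and 2.43% to 5.36% elsewhere. NM_001278308, without the exon of 63 bases, took 7.71% there and at most 2.26% elsewhere, with 0 of 1811 reads in the control of experiment 1. NR_103498, without the exon of 68 bases, took 7.61% there and 3.33% to 5.36% elsewhere. The non-coding transcript NR_103500 took 25.7% there and 0.25% to 4.91% elsewhere. The intervals cover counting error only, and these are estimates by which overlapping isoforms share reads. The shift was in the control of experiment 2 and absent from the control of experiment 1, so it did not follow the condition.

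UBE2F also overlaps a read-through gene, UBE2F-SCLY (gene ID 100533179, hg19 chr2:238875587-239008054), which joins UBE2F with the selenocysteine lyase gene next to it. UBE2F-SCLY had 9 reads in the control and 543 with Myc-TRIM40 in experiment 1, and 1320 and 939 in experiment 2. Of the reads of both genes together it held 0.495%, 21.4%, 30.4% and 27.8% in that order, so the control of experiment 1 was the library that lay apart here. With the 2 genes summed, the log2 fold change of UBE2F was 0.03 in place of -0.11, so its direction depended on how these reads were split.

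**Figure D4:**
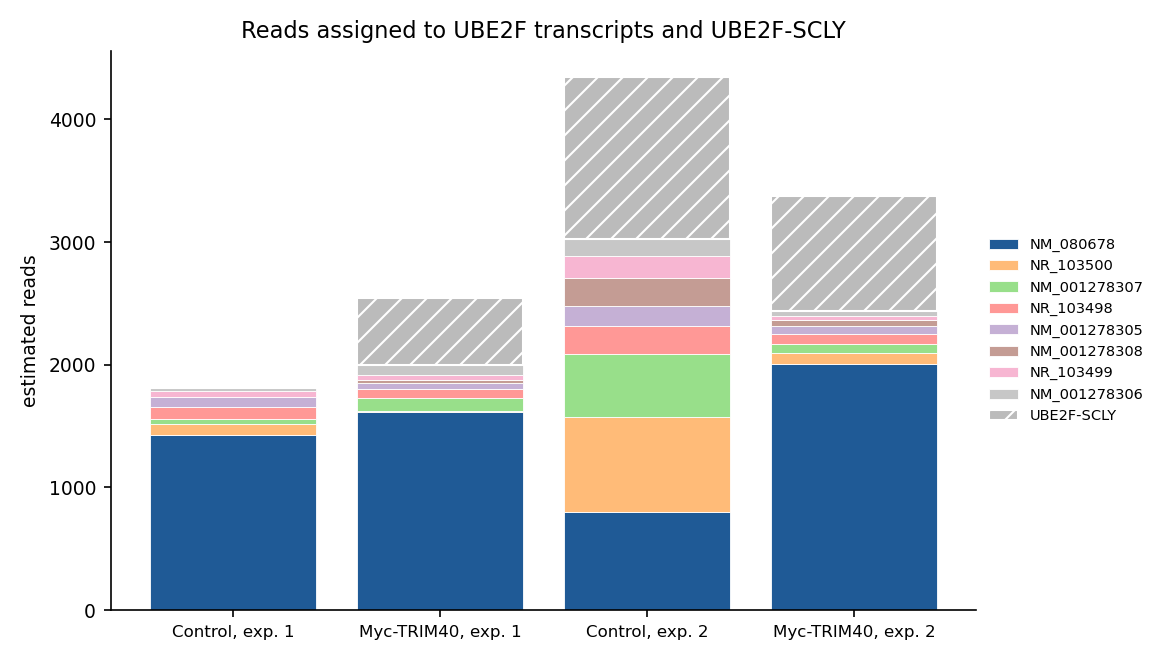
Estimated reads of the 8 deposited UBE2F transcripts and of the read-through gene UBE2F-SCLY in each library, stacked from 0. NM_080678 holds most UBE2F reads in 3 libraries and 26.5% in the control library of experiment 2, and UBE2F-SCLY has 9 reads in the control library of experiment 1 against 543 to 1320 in the others.

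The other members had steadier transcripts than UBE2F. NM_001308101 of DCUN1D1 held 6.03% (Wilson 95% interval 5.14 to 7.06) and 3.14% of reads in experiment 1, control first. In experiment 2 it held 0 of 3863 reads in the control (upper bound 0.099%) and 1.86% with Myc-TRIM40. SENP8 had at least 99.2% of its reads on NM_145204 in every library. NM_198195, the UBA3 form without the exon of 42 bases, held 35.9% and 35.8% of reads in experiment 1 and 38.7% and 33.4% in experiment 2, control first. The intervals of the last pair, 36.8 to 40.7 and 31.7 to 35.3, did not overlap, whereas those of experiment 1 did. All of these intervals cover counting error only, with 1 library per condition in each experiment. The last pair includes the control library of experiment 2, which stood apart. CUL3 was carried mainly by NM_003590, and the form NM_001257197, which lacks a coding exon of 198 bases at chr2:224557659-224557856 of GRCh38, held 7.29% and 10.4% in experiment 1 and 10.9% and 9.43% in experiment 2. The difference between conditions thus had opposite signs in the 2 experiments. NAE1 had 86.1% to 88.1% of its reads on NM_003905 in all 4 libraries. NEDD8, UBE2M, COPS5 and CUL1 had 1 deposited transcript each. NEDD8-MDP1, a read-through gene over NEDD8, held 1.97% to 2.77% of the joint reads.

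The wider pathway was tested in the same fit. Of 43 pathway genes other than the 10, with the E1 enzymes of other modifiers left out, 42 were tested. EdgeR called 0 of them higher or lower (0.0605% of all genes in either direction), and 1 had an unadjusted p under 0.05 (4.54% of all genes). Both counts are near the background. Their median log2 fold change was -0.08, beside 0.04 over all tested genes. None of them passed 1.5-fold in the same direction in both experiments.

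The cullins, the main substrates, numbered 8 and all 8 were tested. Their median log2 fold change was 0.06, from -0.05 for CUL3 to 0.45 for CUL9, the large atypical cullin (95% interval -0.15 to 1.04, adjusted p = 0.888 with edgeR). The direction of that median was not stable. It was -0.01 in experiment 1, with 5 of 8 below 0, and 0.17 in experiment 2, with 0 of 8 below 0. Of all 14868 tested genes, 7390 were below 0 in experiment 1 and 7124 in experiment 2, so 5 of 8 is near the background. With the length trend taken out the median of the cullins was -0.04. The cullins have a median transcript length of 5312 bases. Of the RING partners, co-E3s and exchange factors 8 of 9 were tested, with a median of -0.09, from -0.46 for RBX1, the RING subunit that recruits UBE2M (95% interval -1.01 to 0.09), to 0.10 for CAND1, which exchanges substrate receptors on cullins. With the length trend taken out that median was -0.20. CAND2 did not pass the filter on low counts.

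All 10 listed genes of the COP9 signalosome had estimates below 0, where 45.1% of all tested genes did, and 0 of 10 passed the test. Their median was -0.18, from -0.47 for COPS9, the smallest subunit (95% interval -1.09 to 0.14), to -0.04 for COPS2, a scaffold subunit. Within experiments 7 of 10 were below 0 in experiment 1 and 9 of 10 in experiment 2, with medians of -0.06 and -0.28. Over all 14868 tested genes, 7390 and 7124 were below 0 in the same order, with medians of 0.001 and 0.02. The 10 signalosome genes have a median transcript length of 1885 bases, against 2825 over all tested genes. With the length trend taken out their medians were -0.05 and -0.12. Averaged over both experiments after that step, all 10 were still below 0, with a median of -0.08 beside 0.006 over all tested genes. The share of all genes below 0 on that scale is not given here.

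For NEDD8 processing and turnover, 3 of 3 genes were tested. UCHL3, a hydrolase of ubiquitin and NEDD8 precursors, stood at -0.38 (95% interval -0.92 to 0.15) and NUB1, which leads NEDD8 conjugates to the proteasome, at 0.18. The NEDD8 ligases outside the cullins, listed together with IKBKG, had a median of 0.33 over 4 of 4 tested genes, which was 0.12 in experiment 1, 0.43 in experiment 2 and 0.10 with the length trend taken out. The lowest was IKBKG, the reported neddylation target of TRIM40, at -0.10 (95% interval -0.57 to 0.38, adjusted p = 0.948 with edgeR). The highest was CBL, a RING ligase for receptor tyrosine kinases, at 0.57 (95% interval -0.05 to 1.19, adjusted p = 0.888), with log2 ratios of 0.09 in experiment 1 and 1.04 in experiment 2. RNF111, named after its value was seen, is also in this list, at 0.57 (95% interval 0.04 to 1.09, adjusted p = 0.888 with edgeR). It was the 1 gene of the 42 with an unadjusted p under 0.05, a count that leaves out the other E1 enzymes.

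Among adaptors and receptors, which bring substrates to the cullins, 14 of 14 were tested and the median was -0.06, from -0.56 for ELOB, an adaptor of CUL2 and CUL5 (95% interval -1.14 to 0.01), to 0.32 for BTRC, the F-box receptor for inhibitors of NF-kappaB. That median was 0.01 in experiment 1, -0.03 in experiment 2 and -0.12 with the length trend taken out. The E1 enzymes of the other ubiquitin-like modifiers, 8 of 8 tested, had a median of 0.01, which was 0.02 in experiment 1, -0.05 in experiment 2 and -0.07 with the length trend taken out. The exception was UBA7, the E1 of the interferon-induced modifier ISG15, with 1.62 (SE 0.33, 95% interval 0.86 to 2.38, adjusted p = 0.351 with edgeR). Its log2 ratios of CPM were 2.05 in experiment 1 and 0.83 in experiment 2, both past 1.5-fold, whereas on FPKM + 1 they were 1.49 and 0.48. Its unadjusted p was 0.00104 with edgeR, and it did not pass the test after adjustment. The E1 subunits for NEDD8 had estimates of -0.25 and 0.05 in the same fit.

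**Figure D5:**
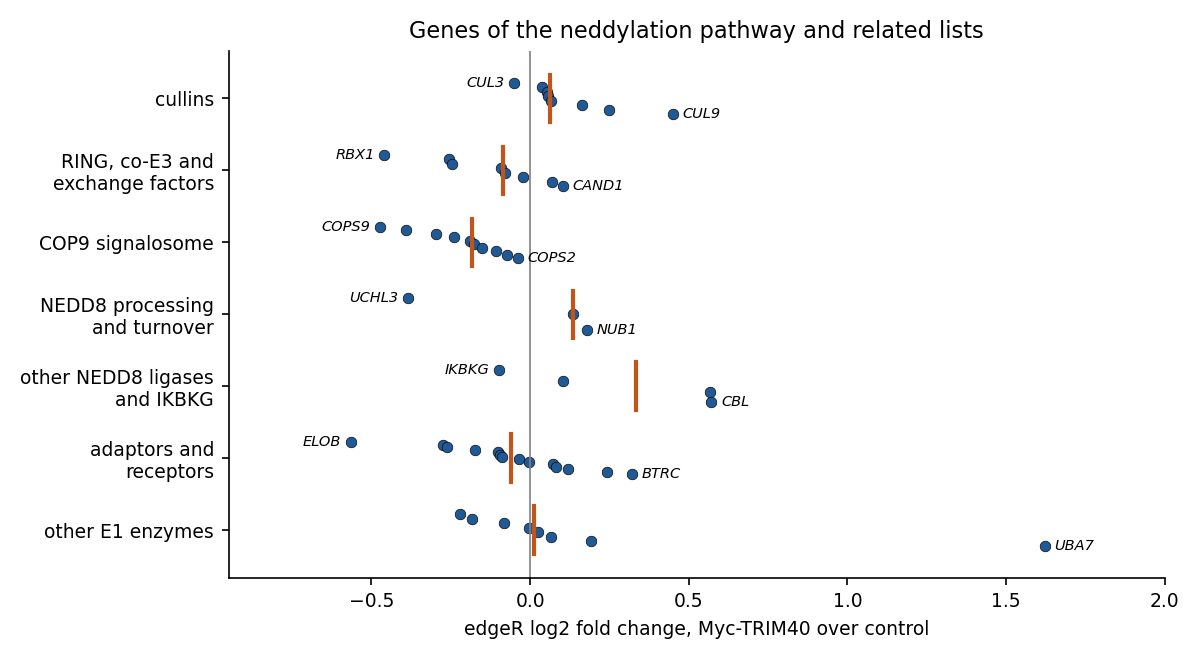
EdgeR log2 fold change, Myc-TRIM40 over control, of each tested gene in 7 lists around neddylation (members included where they belong to a list), 1 point per gene with the list's median as an orange bar and the lowest and highest gene named, except that only the highest is named among the other E1 enzymes. The 10 COP9 signalosome genes lie between -0.47 and -0.04, and UBA7 lies apart from the other E1 enzymes at 1.62, with no gene called at an adjusted p under 0.05.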

How the data were processed

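Transcript tables of HT-29 RNA-seq (stranded polyadenylated libraries) were used, 1 per experiment. The authors aligned reads and assembled transcripts, with HISAT2 2.1.0, StringTie 1.3.4d and hg19 named in the submitters' processing notes, and deposited estimated counts (whole numbers) and FPKM per transcript, and TPM in the second table only. TPM of experiment 1 was computed here from FPKM. The transcript length was deposited as another column.

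Transcripts (63714) were summed per gene (27685), and 14868 genes passed filterByExpr. EdgeR 4.0.16 quasi-likelihood tests on counts used TMM scaling, Benjamini-Hochberg adjustment over all tested genes and the experiment as a block, since each table holds 1 library of each condition and the study took fold changes within an experiment. Same-numbered libraries deviated together from their condition means (r = 0.45 across genes). The fit had 1 residual degree of freedom per gene (R 4.3.3), with the spread shared across genes. Log2 ratios of FPKM used a pseudocount of 1. DESeq2 1.42.0 and limma 3.58.1 were alternatives. The edgeR code was tested on simulated data. Length trends were lowess fits over 0.3 of the genes. With 60954602 to 67424698 reads per library, counting error was small for all members but SENP8.

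Genes named were the members, TRIM40, genes overlapping a member on its strand with at least 10 reads, and the highest and lowest tested gene of each list, of which 1 is not reported here. Markers, CAND2 and RNF111 were named outside this rule, after their values were seen. The members and lists were chosen with earlier results of these data known. Positions from the tables are hg19. Exon sequences are from GRCh38 transcripts, matched by the RefSeq transcript identifiers listed with GENCODE v29. For each pair of transcripts, the summed length of these exons equalled the difference between the deposited lengths.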

Additional observations from a re-analysis of the deposited data

How the results depend on the processing

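Member calls stayed at 0 in each alternative with a test: no member had an adjusted p under 0.05 in any of 100 member and alternative pairs, with a smallest value of 0.438. Without the replicate block, which holds the pairing of libraries by experiment, 0 genes were called higher and 0 lower, against 6 and 3 with it, and no member changed direction. Counts of calls over all genes moved to 45 higher and 9 lower with DESeq2, to 0 and 0 without the filter on low counts, and to 3 and 0 with limma on log2(FPKM + 1). Leaving out 1 library gave 2 to 88 higher (2 without the control of experiment 2, 88 without the Myc-TRIM40 library of experiment 2) and 0 to 18 lower. In those fits, made without the block, the lone library of a condition is assumed to vary like the other condition's libraries. Genes past 1.5-fold in both experiments, 68 higher and 13 lower, became 259 and 44 with a pseudocount of 0.1, 164 higher on TPM, and 19 and 5 at 2-fold. A single experiment had 413 to 1270 genes past the fold upwards and 98 to 428 downwards.

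The directions of 3 members turned under a setting that kept all libraries: UBE2F was 0.032 with overlapping genes summed, CUL3 was 0.028 with limma, and DCUN1D1 was -0.19 with the length trend taken out. Leaving out a library or an experiment moved NEDD8 between -0.67 and 0.026, NAE1 between -0.77 and 0.34, UBA3 between -0.13 and 0.23, UBE2F between -0.47 and 0.26, COPS5 between -0.75 and 0.16, SENP8 between -0.26 and 0.54, DCUN1D1 between -0.25 and 0.44, CUL1 between -0.041 and 0.17 and CUL3 between -0.22 and 0.12. UBE2M stayed below 0, from -0.53 to -0.12. Without the control library of experiment 2, in a fit that could not hold the experiment constant, 5 of 10 members changed sign. All fits that left out 1 library lacked the block, so differences between the experiments entered their estimates. Taking out the length trend, an alternative added after seeing the data, gave list medians of -0.20 for RING partners, co-E3s and exchange factors, 0.10 for the other NEDD8 ligases and IKBKG, -0.12 for adaptors and receptors and -0.071 for the other E1 enzymes. Within single experiments these medians ran from -0.081 to -0.061, from 0.12 to 0.43, from -0.030 to 0.0097 and from -0.045 to 0.021. The cause of these changes was not tested.

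With 2 libraries per condition, each member's change was bounded only by its own interval, and that interval belongs to the main edgeR fit. Estimates from fits without a library, which lacked the block, could fall outside it. For NAE1 they reached -0.77 and 0.34, where the interval was -0.73 to 0.23. The highest upper bound was 1.71-fold (SENP8) and the lowest lower bound 0.553-fold (NEDD8), while the upper bound was 1.16-fold for NEDD8 and 1.15-fold for UBE2M. Protein levels and NEDD8 conjugation were not measured by these libraries.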
